A study of Callithrix jacchus with 39 samples.

Results

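The comparison covered 2 groups of common marmoset embryonic stem cells (ESCs) in the primed state, DSY-c2 (samples titled DSY-c2_P_Tg) and N40 (samples titled N40_P_Tg). The groups were chosen by sample title, and their 6 libraries, 3 in each, were part of 39 libraries of marmoset ESCs and early embryos. The DSY-c2 libraries carry replicate numbers 2, 4 and 5, the N40 libraries 1, 2 and 3, and replicate values are given below in that order. Both groups are labelled as primed ESCs with the suffix Tg, and the labels state neither what Tg stands for nor any drug, passage or culture medium. The same lines appear in the naive state as DSY-c2 TgON and N40 TgOFF, and 2 further primed groups, DSY127 and No.40, carry no Tg suffix. The labels do not say how these are related to DSY-c2 and N40, whether DSY-c2 is 1 clone, or whether replicates were separate cultures, so the p-values speak only to the variation among these libraries, which could be technical in origin. The comparison asks how cells of the 2 lines differed before conversion to the naive-like state named in the title of the study.

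Naive and primed pluripotency are states of the epiblast before and after implantation. Primed primate ESCs depend on FGF and activin or NODAL signals, express factors such as ZIC2, SFRP2 and the de novo DNA methyltransferases, and can start primitive streak and endoderm programmes in culture, marked by TBXT, EOMES and GATA6. Naive human cells express KLF17, DPPA5, KLF5 and TFCP2L1, which primed human cells hold at low levels, so the level of these genes in a primed culture is often read as residual or early naive character. Immediate early genes such as FOS, ARC and SGK1 are switched on within minutes to hours of growth factor, serum or mechanical stimulation.

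Each library held 63.42 to 63.99 M counts in DSY-c2 and 75 to 78.73 M counts in N40 (M, units of 1e6), and 16474 to 16573 genes in DSY-c2 and 16170 to 16271 in N40 had 10 counts or more. Across 17957 genes, log2 CPM (counts per 1e6 counts, scaled for library composition) correlated at r = 0.978 to 0.99 within DSY-c2, 0.979 to 0.986 within N40 and 0.942 to 0.965 between the lines, as a description of libraries that differ in depth. A single library, DSY-c2 replicate 4, stood apart from its group for lineage and mesenchymal genes, so values that rest on it are given with and without it. The data columns of DSY-c2 all end in L6 or L7 and those of N40 all end in L1 or L2. What the endings mark is not given in the sources used here, and within these 6 libraries ending and line cannot be told apart. A term for the ending could be fitted only through other ESC groups, and that fit, added after the data were seen, called 10.6% of genes (6.49% higher and 4.15% lower) in place of 35.2%. Only No.40 (L6 or L7 in replicate 1) and DSY-c2 TgON (L6 or L7 in replicates 1 and 2) hold both endings. The term thus rests on few libraries and takes up whatever else sets them apart within their groups. POU5F1, SOX2 and NANOG, the defining markers of the labelled cell type, were present in all 6 libraries.

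DSY-c2 and N40 primed cells differed across much of the transcriptome. Of 17957 genes tested, 6314 (35.2%) passed an adjusted p of 0.05, with 3562 (19.8%) higher in DSY-c2 and 2752 (15.3%) lower, and the median log2 fold change over all genes was 0.06. The libraries of the lines did not overlap in 8655 genes (48.2%). The large differences lay mostly on the higher side. A log2 fold change of 2 or more separated 926 genes higher in DSY-c2 from only 118 lower, and one of 4 or more separated 279 from 21. Without DSY-c2 replicate 4, the counts were 2577 higher (14%) and 2829 lower (15.4%), with 194 and 29 genes at a log2 fold change of 4 or more. Of the genes called higher, 70.7% were also called without that library, and of those called lower, 88.5%. The scaling of DESeq2 gave 3353 higher and 3040 lower, a more even split. With a term for the ending, 31.4% of the genes called higher and 25.8% of those called lower were called in the same direction.

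The 12 largest rises among called genes with a symbol, at least 10 CPM and no overlap between the lines were GC, MYL7, DKK4, POSTN, TRPA1, CER1, GATA6, SAMD3, PTPRR, SPHKAP, EOMES and SYT6. GC, which encodes the vitamin D-binding protein made by liver and yolk sac, had 37.9, 47.6 and 4.02 CPM in DSY-c2 and no count in any N40 library, so it was at least 2296-fold higher in DSY-c2 taking 3 counts in the 3 libraries together as the floor. MYL7, an atrial myosin light chain, had 10.2, 55.1 and 3.31 CPM in DSY-c2 and no count in N40, which is at least 1759-fold. TRPA1, a cation channel gene, had 15.1, 116 and 5.67 CPM in DSY-c2 and 0.0501, 0 and 0 CPM in N40. In each of these 3 genes all DSY-c2 libraries lay above all N40 libraries, yet the DSY-c2 libraries themselves differed by about an order of magnitude or more. DKK4, a secreted WNT inhibitor, had 4.63, 48.2 and 0.825 CPM in DSY-c2 and no count in N40, at least 1375-fold, and was called with all libraries (edgeR adjusted p = 0.0204) but not without N40 replicate 2 or 3 (adjusted p up to 0.0563). SYT6, a synaptotagmin, was called only with DSY-c2 replicate 4 (adjusted p = 0.0101 with it and 0.0666 without it). With a term for the ending, MYL7 and POSTN kept their calls and the other 10 of these 12 genes did not, with adjusted p from 0.0509 for GATA6 to 0.417 for SAMD3.

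The 12 largest falls were C18orf63, PAX7, PGM5, SGK1, NPPB, SRPX2, TBX3, ARC, UTF1, ARMC3, BOC and CCN1, and these were spread more evenly over the replicates. C18orf63, a gene of little-known function, had 0.444, 0.338 and 0.3 CPM in DSY-c2 and 16.4, 18 and 14.8 CPM in N40 (log2 fold change -5.50 ± 0.59, SE, edgeR adjusted p = 9.73e-06). PGM5, a phosphoglucomutase relative found at adherens junctions, had 15.5, 9.64 and 28.5 CPM in DSY-c2 and 216, 269 and 204 CPM in N40 (log2 -3.68 ± 0.41, SE, edgeR adjusted p = 2.28e-05). Neither gene showed overlap between the lines. NPPB, which encodes a natriuretic peptide, had 1.78, 10.7 and 5.25 CPM in DSY-c2 and 17.7, 41.8 and 56.2 CPM in N40, with a log2 fold change of -2.71 and -3.52 without DSY-c2 replicate 4. BOC, a hedgehog co-receptor, had 4.32, 3.86 and 4.51 CPM in DSY-c2 and 15.5, 21.6 and 20.5 CPM in N40. PAX7, a paired-box factor of neural crest and muscle, had 0.533, 0.461 and 0.81 CPM in DSY-c2 and 10.5, 42.5 and 10 CPM in N40, and its log2 fold change of -5.12 was -4.13 without N40 replicate 2. Of these 5 genes, only PAX7 lost its call with a term for the ending (adjusted p = 0.174). Among the most abundant genes with a symbol, HSP90AA1, a heat-shock chaperone, averaged 5640 CPM in DSY-c2 and 5382 CPM in N40, and EEF2, a translation elongation factor, averaged 3657 CPM in DSY-c2 and 4214 CPM in N40. PTMA, which encodes prothymosin alpha, averaged 2830 CPM in DSY-c2 and 3822 CPM in N40, and none of the 3 passed the test. PTMA was called lower without DSY-c2 replicate 2 (log2 -0.65, adjusted p = 0.0418) or N40 replicate 3 (log2 -0.62, adjusted p = 0.0364).

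Core pluripotency genes were on balance lower in DSY-c2, by modest amounts. Of 10 members tested, 6 were lower, 2 higher and 2 not called, beside 15.3% of all genes lower and 19.8% higher. Their median log2 fold change was -0.60 (-0.59 without DSY-c2 replicate 4). The fit with an ending term called 3 lower and 1 higher, beside 4.15% and 6.49% of all genes. POU5F1, the OCT4 gene, had 977, 900 and 1233 CPM in DSY-c2 and 1499, 1594 and 1661 CPM in N40 (log2 fold change -0.61 ± 0.14, SE, edgeR adjusted p = 0.00265). SOX2, its partner at pluripotency enhancers, had 112, 62.7 and 97.5 CPM in DSY-c2 and 144, 144 and 203 CPM in N40 (log2 -0.85 ± 0.19, SE, edgeR adjusted p = 0.00262). In both genes the 3 DSY-c2 libraries lay below the 3 N40 libraries. NANOG, the homeobox factor of the inner cell mass, had 415, 354 and 519 CPM in DSY-c2 and 477, 551 and 576 CPM in N40, and these ranges overlapped (adjusted p = 0.0869). NANOG was called lower without DSY-c2 replicate 5 (log2 -0.54, adjusted p = 0.00882) or N40 replicate 1 (log2 -0.43, adjusted p = 0.0417). SALL4, a zinc-finger factor, had 131, 128 and 128 CPM in DSY-c2 and 121, 131 and 152 CPM in N40, also overlapping (adjusted p = 0.648).

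The 2 LIN28 genes, whose proteins block maturation of let-7 miRNAs, moved in opposite directions. LIN28A had 364, 340 and 379 CPM in DSY-c2 and 502, 518 and 599 CPM in N40 (log2 fold change -0.58 ± 0.11, SE, edgeR adjusted p = 0.000852), while LIN28B had 1279, 1097 and 1168 CPM in DSY-c2 and 464, 390 and 425 CPM in N40 (log2 1.47 ± 0.10, SE, edgeR adjusted p = 1.43e-07). No LIN28A or LIN28B library of one line reached the range of the other. UTF1, a chromatin-bound factor of undifferentiated cells, had 15.4, 11.4 and 8.8 CPM in DSY-c2 and 49.9, 66.5 and 62.9 CPM in N40 (log2 -2.33 ± 0.22, SE, edgeR adjusted p = 3.14e-06). PRDM14, a repressor that in mouse protects naive pluripotency and germ cell fate, had 163, 156 and 236 CPM in DSY-c2 and 341, 402 and 559 CPM in N40 (log2 -1.23 ± 0.19, SE). GDF3, a TGF-beta family ligand of pluripotent cells, had 464, 626 and 464 CPM in DSY-c2 and 188, 232 and 266 CPM in N40 (log2 1.18 ± 0.28, SE). LIN28A, LIN28B, UTF1 and PRDM14 kept their calls in every alternative run, whereas POU5F1, SOX2, GDF3 and the chromatin factor gene DPPA2 (log2 -1.04 ± 0.21, SE) did not pass with a term for the ending (adjusted p = 0.313, 0.162, 0.222 and 0.114). Of the 10 reprogramming factors tested, 4 were lower and 1 higher, beside 15.3% and 19.8% of all genes. The core or naive list also holds 8 of the 10 factors. MYC, the growth regulator among the reprogramming factors, had 225, 200 and 263 CPM in DSY-c2 and 271, 304 and 367 CPM in N40. Its call (edgeR adjusted p = 0.0201 with all libraries) was lost without DSY-c2 replicate 4 or N40 replicate 3.

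Genes of naive pluripotency were higher in DSY-c2 primed cells than in N40 primed cells. Of 17 members tested, 9 were higher, 1 was lower and 7 were not called, beside 19.8% of all genes higher and 15.3% lower. The median log2 fold change was 1.21 (1.29 without DSY-c2 replicate 4). The ending term left 5 higher and none lower, beside 6.49% and 4.15% of all genes. KLF17 (ENSCJAG00000003910), a zinc-finger factor that marks naive human cells, had 21.6, 25.2 and 27.5 CPM in DSY-c2 and 0.651, 0.207 and 0.665 CPM in N40 (log2 fold change 5.60 ± 0.77, SE, edgeR adjusted p = 0.00014). The N40 libraries were all under 1 CPM. As a share of the mean of the same line in the naive state, the primed level of KLF17 was 28.8% in DSY-c2 and 0.44% in N40. The naive cells are TgON in DSY-c2 and TgOFF in N40, so such shares have unlike references. ARGFX, a homeobox gene of cleavage-stage primate embryos, had 1.89, 1.05 and 1.68 CPM in DSY-c2 and no count in N40, which is at least 118-fold.

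DPPA5, an RNA-binding protein gene of pluripotent cells, had 318, 148 and 282 CPM in DSY-c2 and 39.1, 29.1 and 33 CPM in N40 (log2 fold change 2.89 ± 0.27, SE, edgeR adjusted p = 4.54e-06). NLRP7, a maternal-effect gene needed for imprinting in human oocytes, had 830, 443 and 667 CPM in DSY-c2 and 122, 140 and 167 CPM in N40 (log2 2.18 ± 0.26, SE, edgeR adjusted p = 2.98e-05). KHDC3L, another maternal-effect gene, had 223, 178 and 241 CPM in DSY-c2 and 71.4, 69.2 and 92.2 CPM in N40 (log2 1.46 ± 0.16, SE, edgeR adjusted p = 8.48e-06). None of the 3 genes overlapped between the lines, and the lowest DSY-c2 value in each was that of replicate 4, the library that was highest for lineage genes. The primed share of the naive level (TgON for DSY-c2, TgOFF for N40) was 40.1% in DSY-c2 and 4.54% in N40 for DPPA5. It was 29.9% in DSY-c2 and 5.86% in N40 for NLRP7, and 33.3% in DSY-c2 and 6.06% in N40 for KHDC3L.

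The remaining naive genes were mixed. KLF5 had 45.4, 52.5 and 46.9 CPM in DSY-c2 and 10.6, 14.7 and 18.7 CPM in N40 (log2 fold change 1.72 ± 0.42, SE, edgeR adjusted p = 0.00576), and TFCP2L1, a target of LIF signalling in mouse, had 7.7, 5.49 and 7.71 CPM in DSY-c2 and 3.91, 1.58 and 2.44 CPM in N40 (log2 1.40 ± 0.30, SE, edgeR adjusted p = 0.00214). Both were above the N40 range in every DSY-c2 library. KLF4 had 174, 96.6 and 192 CPM in DSY-c2 and 147, 138 and 136 CPM in N40, and NR5A2, a nuclear receptor gene, had 52.1, 60.4 and 69.3 CPM in DSY-c2 and 45, 60 and 66.3 CPM in N40. Both overlapped and were not called (adjusted p = 0.61 and 0.727). TBX3, a T-box gene of naive cells and of mesoderm and amnion, was the only called member lower in DSY-c2, with 2.53, 3.03 and 4.63 CPM in DSY-c2 and 13.6, 24.6 and 18.7 CPM in N40 (log2 -2.48 ± 0.56, SE, edgeR adjusted p = 0.00366). ESRRB was near 1 CPM in both lines, at 1.33, 0.538 and 0.54 CPM in DSY-c2 and 0.902, 0.647 and 0.502 CPM in N40, and was not called. KLF17, ARGFX, DPPA5, NLRP7 and KHDC3L passed in every alternative, while KLF5, TFCP2L1 and TBX3 did not pass with a term for the ending (adjusted p = 0.279, 0.151 and 0.0847). TFAP2C, a trophoblast and germ cell factor also used in the naive state, had 56.4, 23.8 and 62.7 CPM in DSY-c2 and 27.7, 27.8 and 22.4 CPM in N40, and its call (adjusted p = 0.0115) was lost without any of DSY-c2 replicate 2, DSY-c2 replicate 5 or N40 replicate 3, and with only the groups compared in the fit (adjusted p = 0.0829).

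**Figure D1:**
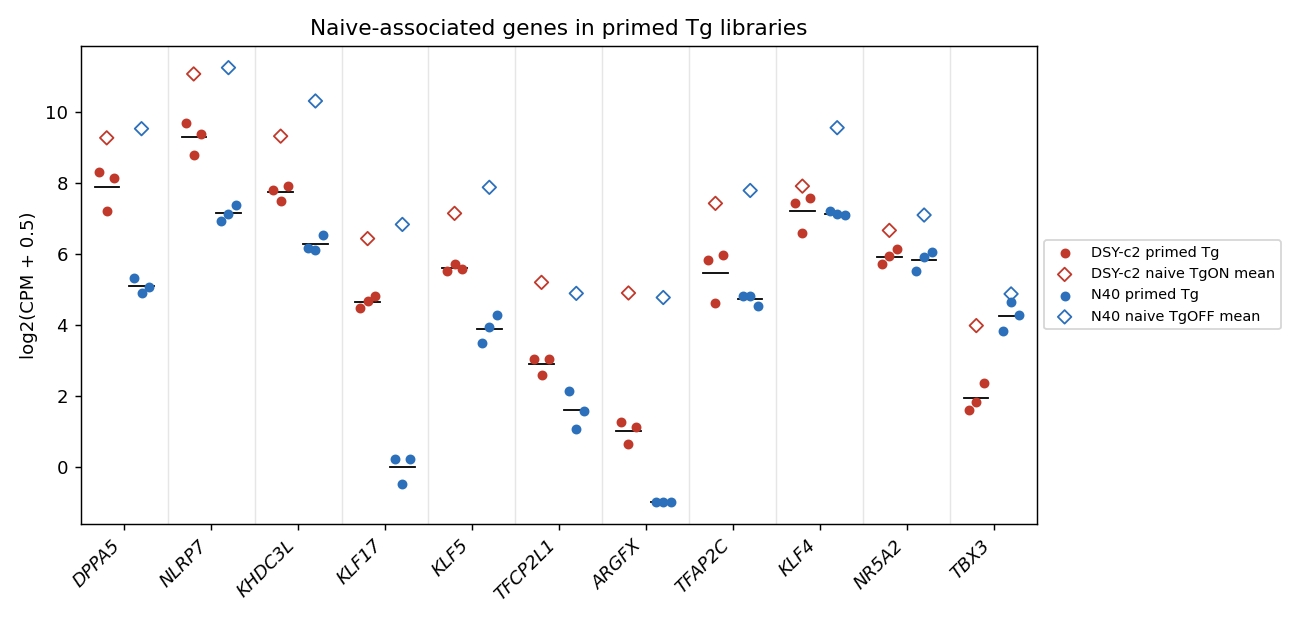
Expression, log2(CPM + 0.5), of 11 naive-associated genes in DSY-c2 (red) and N40 (blue) primed Tg libraries. Each filled point is a library, each black line the mean of 3 libraries, and each open diamond the mean of the same line in the naive state (DSY-c2 TgON, N40 TgOFF). DPPA5, NLRP7, KHDC3L and KLF17 lie higher in all 3 DSY-c2 libraries, KLF4 and NR5A2 overlap, and TBX3 is lower in DSY-c2.

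Primed-state genes did not move as a block in the opposite direction. Of 17 tested, 9 were higher in DSY-c2, 2 lower and 6 not called (median log2 fold change 1.63). Without DSY-c2 replicate 4 the counts were 5 higher and 3 lower. Among all genes, 19.8% were higher and 15.3% lower, and 14% and 15.4% without that library. In the fit with the ending term 3 were higher and none lower, beside 6.49% and 4.15% of all genes. ZIC2, the zinc-finger factor of primed cells, had 221, 244 and 272 CPM in DSY-c2 and 207, 219 and 305 CPM in N40, and DNMT3B, a de novo DNA methyltransferase, had 3367, 1992 and 2989 CPM in DSY-c2 and 2704, 2254 and 2354 CPM in N40. Both overlapped, and neither was called (adjusted p = 0.987 and 0.427). SALL3, a spalt-type repressor, had 12.8, 12.9 and 7.98 CPM in DSY-c2 and 0.639, 0.712 and 0.76 CPM in N40 (log2 3.99 ± 0.38, SE, edgeR adjusted p = 3.5e-06), and SALL1 had 25.7, 34.5 and 17.6 CPM in DSY-c2 and 6.15, 5.24 and 2.8 CPM in N40 (log2 2.46 ± 0.44, SE). SALL2, by contrast, was lower, at 108, 103 and 120 CPM in DSY-c2 and 140, 159 and 246 CPM in N40 (log2 -0.72 ± 0.17, SE). NEFL, the neurofilament light chain, had 50.6, 48 and 52.9 CPM in DSY-c2 and 5.11, 4.48 and 3.23 CPM in N40 (log2 3.56 ± 0.54, SE, edgeR adjusted p = 0.00024). The SALL and NEFL ranges did not overlap between the lines. PTPRZ1, a receptor phosphatase gene, had 19.8, 11.7 and 14.4 CPM in DSY-c2 and 5.8, 4.56 and 4.47 CPM in N40 (log2 1.63 ± 0.36, SE). SALL3, NEFL and PTPRZ1 passed in every alternative, and SALL1 and SALL2 did not pass with a term for the ending (adjusted p = 0.1 and 0.14). OTX2, a homeobox factor of the epiblast, had 6.66, 17.7 and 4.77 CPM in DSY-c2 and 16.3, 15.5 and 11.7 CPM in N40, was not called with all libraries, and was called lower without replicate 4 (log2 -1.41, adjusted p = 0.0276). FGF2, CRABP1, CDH2 and LEF1 were called higher only with that library (adjusted p = 0.0582, 0.0788, 0.0634 and 0.0652 without it), and CRABP1 and CDH2 were also lost without N40 replicate 2 or 3.

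Genes of the primitive streak, mesoderm and endoderm were higher in DSY-c2 than in N40, with 1 DSY-c2 library far above the other 2. Of 18 streak and mesoderm genes tested, 11 were higher in DSY-c2 and none lower (median log2 fold change 2.93), and without DSY-c2 replicate 4 the counts were 5 and 0 (median 1.32), and 7 were higher without any single N40 library. Of 11 definitive endoderm genes, 8 were higher and none lower (median 3.22), against 6 and 0 without replicate 4 (median 1.99). Of 16 primitive endoderm and yolk sac genes, 5 were higher and none lower, against 3 without replicate 4 or any single N40 library. In the fit with the ending term, 1, 1 and 0 genes of the 3 lists were higher, beside 6.49% of all genes. The share of all genes called higher was 19.8% with every library and 14% without DSY-c2 replicate 4. The lists share members, EOMES, GATA4, GATA6, FOXA2 and PDGFRA among them, so these counts are not independent. In bulk libraries, fewer cells of a type and less RNA per cell cannot be told apart.

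TBXT, the brachyury gene of the streak, had 33.7, 96.1 and 37.8 CPM in DSY-c2 and 2.43, 3.75 and 4.82 CPM in N40 (log2 fold change 3.93 ± 0.82, SE, edgeR adjusted p = 0.0025, and 3.22 without DSY-c2 replicate 4). EOMES, a T-box factor of streak and endoderm, had 8.91, 109 and 5.04 CPM in DSY-c2 and 0, 0.116 and 0.706 CPM in N40 (log2 7.24 ± 1.82, SE, edgeR adjusted p = 0.00763, 4.62 without DSY-c2 replicate 4, 6.60 without N40 replicate 1, and 9.40 without N40 replicate 3). CDX1, a posterior homeobox gene and WNT target, had 13.5, 31.1 and 13.7 CPM in DSY-c2 and 1.58, 1.73 and 2.72 CPM in N40 (log2 3.28 ± 0.55, SE, edgeR adjusted p = 0.000522). All 3 DSY-c2 libraries were above the N40 range for TBXT, EOMES and CDX1. MIXL1, a homeobox gene of the streak, had 5.18, 70.6 and 5.59 CPM in DSY-c2 and 3.57, 4.53 and 4.78 CPM in N40, and its log2 fold change of 2.66 was 0.26 without DSY-c2 replicate 4 (adjusted p = 0.779). PDGFRA, a mesoderm receptor, and WNT3, a streak-inducing ligand, also lost their calls without that library (adjusted p = 0.62 and 0.0611), and MIXL1 and PDGFRA did so without any single N40 library too. KDR, the VEGF receptor gene, had 47.8, 78.5 and 47.3 CPM in DSY-c2 and 82, 63 and 190 CPM in N40 and was not called. TBX20, a heart T-box gene, had 2.61, 5.6 and 1.74 CPM in DSY-c2 and 0.476, 0.129 and 0.462 CPM in N40 (log2 3.21 ± 0.75, SE, and 2.54 without replicate 4).

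CER1, a secreted inhibitor of NODAL, BMP and WNT, had 130, 2055 and 102 CPM in DSY-c2 and 0.426, 0.414 and 0.244 CPM in N40 (log2 fold change 11.03 ± 2.43, SE, edgeR adjusted p = 0.00454, and 8.24 without DSY-c2 replicate 4). GATA6, an endoderm zinc-finger factor, had 12.1, 162 and 7.9 CPM in DSY-c2 and 0.1, 0.0518 and 0.0272 CPM in N40 (log2 9.92 ± 2.11, SE, edgeR adjusted p = 0.00272, and 7.26 without it). Even the lowest DSY-c2 library was far above N40 for both. FOXA2, a pioneer factor of endoderm, had 6.47, 18.8 and 1.41 CPM in DSY-c2 and 0.276, 0.311 and 0.163 CPM in N40 (log2 5.14 ± 1.32, SE, and 3.90 without replicate 4), and HNF4A, a nuclear receptor of visceral endoderm and liver, had 8.81, 34.5 and 4.86 CPM in DSY-c2 and 0.175, 0.116 and 0.244 CPM in N40 (log2 6.48 ± 1.43, SE, and 5.18 without replicate 4). CXCR4, a chemokine receptor of definitive endoderm, had 21.7, 86.6 and 14.2 CPM in DSY-c2 and 3.16, 1.45 and 1.06 CPM in N40 (log2 4.43 ± 1.01, SE, and 3.18 without it). Replicate 4 was the highest library for FOXA2, HNF4A and CXCR4 as well. Of the streak, mesoderm and endoderm genes named here, CDX1 alone passed with a term for the ending. That term rests in part on No.40 replicate 1, whose mean log2 level of the definitive endoderm list was 5.49. In No.40 replicates 2 and 3 it was 2.72 and 2.11, and in DSY-c2 TgON replicates 1, 2 and 3 it was 2.66, 2.93 and 3.19. Within No.40, the ending and this level cannot be told apart.

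For EOMES, GATA6 and CER1, the primed groups without the Tg suffix also had means above N40. EOMES averaged 19.5 CPM in DSY127 and 22.8 CPM in No.40, GATA6 28.8 CPM in DSY127 and 40.9 CPM in No.40, and CER1 117 CPM in DSY127 and 390 CPM in No.40. These are means over 3 libraries that themselves differed widely, and N40 was not tested against either group here. Early neural genes did not follow the endoderm genes. Of 13 tested, 1 was higher and 1 lower, beside 19.8% and 15.3% of all genes. Of 14 trophectoderm genes, 3 were higher and none lower, beside 19.8% of all genes higher, and 2 were higher without DSY-c2 replicate 4. TP63, an epithelial p53 relative, lost its call without that library (adjusted p = 0.119) and without N40 replicate 1, 2 or 3 (adjusted p = 0.0508, 0.057 and 0.0576). DLX3, a homeobox gene, had a log2 fold change of 4.07, and 3.47 without N40 replicate 3. The other member was KRT7, a simple-epithelium keratin with 85.1, 65 and 113 CPM in DSY-c2 and 5, 7.48 and 5.69 CPM in N40. CDX2, the defining trophectoderm factor, was at or below 0.0308 CPM in all 6 libraries.

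**Figure D2:**
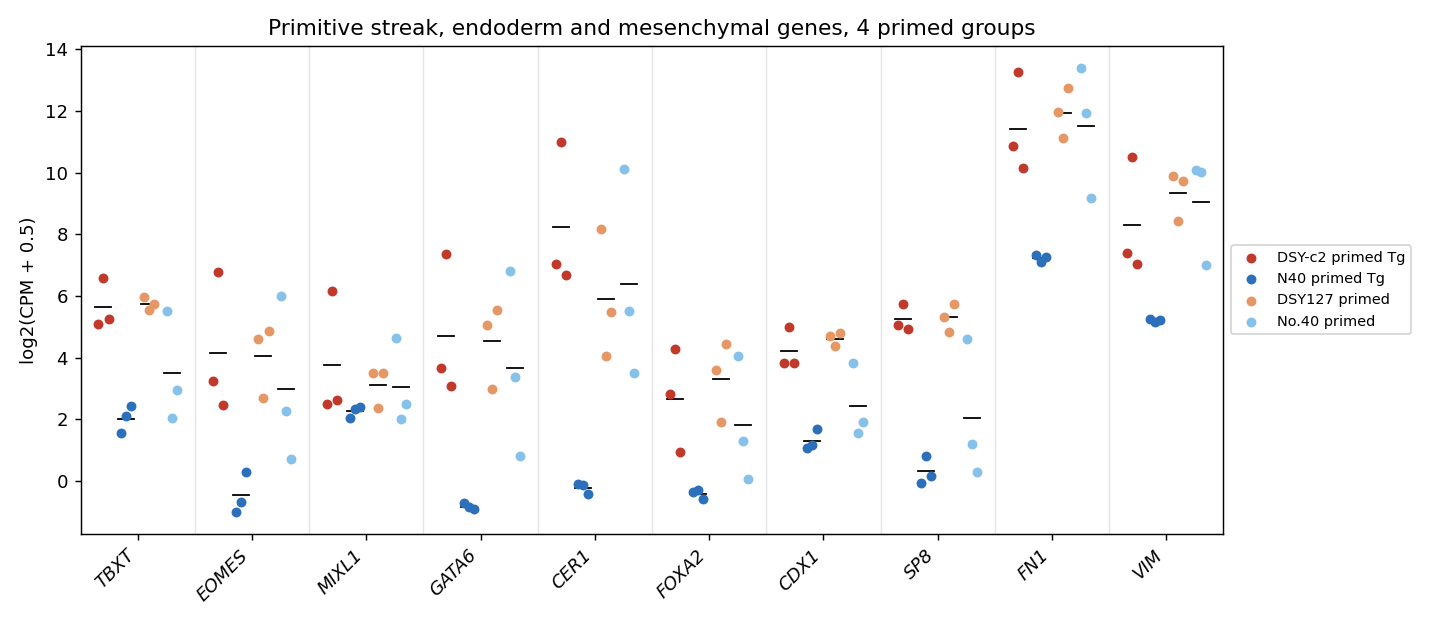
Expression, log2(CPM + 0.5), of streak, endoderm and mesenchymal genes in DSY-c2 (red), N40 (blue), DSY127 (orange) and No.40 (light blue) primed libraries; points are libraries and black lines means of 3. N40 libraries form a tight low group for GATA6, CER1, FN1 and VIM, and the highest DSY-c2 point in each column is replicate 4.

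Mesenchymal genes repeated this division. Of 16 tested, 8 were higher in DSY-c2 and 2 lower (median log2 fold change 2.76), beside 19.8% and 15.3% of all genes. Without DSY-c2 replicate 4 they were 5 and 2 (median 1.46), beside 14% and 15.4% of all genes. The higher count was 5 without N40 replicate 2 or 3. A term for the ending left 1 higher and 1 lower, beside 6.49% and 4.15% of all genes. VIM, the intermediate filament vimentin, had 167, 1466 and 131 CPM in DSY-c2 and 37.7, 34.7 and 36.3 CPM in N40 (log2 4.02 ± 0.96, SE, edgeR adjusted p = 0.00556, and 1.98 without replicate 4). ZEB1, a repressor of epithelial genes, had 0.651, 6.09 and 0.555 CPM in DSY-c2 and 0.113, 0.207 and 0.122 CPM in N40 (log2 4.03 ± 0.92, SE, and 1.96 without replicate 4). The 3 N40 libraries were tightly grouped and low for VIM and ZEB1. PDGFRB, a receptor of mesenchymal cells, went the other way, with 31.2, 35.7 and 46 CPM in DSY-c2 and 81.2, 133 and 117 CPM in N40 (log2 -1.55 ± 0.28, SE, edgeR adjusted p = 0.000768). VIM, ZEB1 and PDGFRB did not pass with a term for the ending (adjusted p = 0.104, 0.0609 and 0.162).

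Of 18 epithelial genes, 4 were higher and 4 lower, but 2 were higher and 5 lower without DSY-c2 replicate 4. A fit without N40 replicate 1 left 2 higher. Shares over all genes, also for the fibroblast and blood lists below, were 19.8% higher and 15.3% lower. CLDN3, a tight-junction claudin, had 17.8, 16.2 and 12.1 CPM in DSY-c2 and 45, 55.6 and 71.1 CPM in N40 (log2 -1.90 ± 0.27, SE, edgeR adjusted p = 0.00011), while TJP1, the junction scaffold ZO-1, had 311, 303 and 312 CPM in DSY-c2 and 141, 149 and 159 CPM in N40 (log2 1.04 ± 0.08, SE, edgeR adjusted p = 5.2e-07). Both held in every alternative, and the genes beside TJP1 on its chromosome differed in the same way, as described at the end. Markers of fibroblasts, the usual feeder cells, were mixed too. Of 14 tested, 5 were higher and 2 lower, and 3 were higher without DSY-c2 replicate 4 or any single N40 library. Their summed level was 1158 to 1543 CPM in DSY-c2 and 1285 to 1507 CPM in N40. The defining markers differed widely in level. COL1A1 and PDGFRB in both lines, and POSTN in DSY-c2, were far more abundant than DCN, with values given among the mesenchymal and matrix genes. DCN, a dermal proteoglycan, had 0.637, 1.41 and 0.24 CPM in DSY-c2 and 0, 0.0259 and 0 CPM in N40. PRRX1 and FAP, which are outside the defining set, were at most 0.466 CPM and 0.0259 CPM in any of the 6 libraries. PRRX1 averaged 34.6 CPM in DSY127 and 36.4 CPM in No.40. Blood and endothelial genes (4 of 13 higher and 1 lower, but 2 higher without DSY-c2 replicate 4, N40 replicate 1 or N40 replicate 2) summed to 198 to 483 CPM in DSY-c2 and 176 to 248 CPM in N40, and PTPRC, the leukocyte marker CD45, was at most 0.237 CPM.

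Extracellular matrix genes included members higher and members lower in DSY-c2. Fibronectin and other matrix proteins of mesenchyme and endoderm were higher in DSY-c2, whereas the type I collagen chain COL1A1, LTBP1 and LAMA2 were lower. Collagens numbered 10 higher and 6 lower of 39 tested, laminins and basement membrane genes 7 and 3 of 21, and other matrix proteins 11 and 6 of 51, with medians of 0.32, 0.59 and 0.45. Over all genes 19.8% were higher and 15.3% lower, so these shares lie near the background or, for laminins, somewhat above it. Without DSY-c2 replicate 4 these were 8 and 4, 4 and 2, and 10 and 6, with medians of 0.19, 0.34 and 0.16. Without that library, 14% of all genes were higher and 15.4% lower. The lower collagens were 3 without DSY-c2 replicate 5, the higher laminins 4 without N40 replicate 1, and the lower laminins 1 without N40 replicate 3. With a term for the ending the counts were 1 and 2, 1 and 1, and 3 and 1, beside 6.49% and 4.15% of all genes. FN1, fibronectin, was among the 5 most abundant genes of DSY-c2, with 1848, 9842 and 1132 CPM in DSY-c2 and 159, 137 and 152 CPM in N40 (log2 fold change 4.84 ± 0.98, SE, edgeR adjusted p = 0.00199, and 3.25 without DSY-c2 replicate 4). Its lowest DSY-c2 library was still well above the highest N40 library. POSTN (ENSCJAG00000017968), the matricellular protein periostin, had 96.8, 188 and 7.84 CPM in DSY-c2 and 0, 0.0518 and 0.0272 CPM in N40 (log2 11.77 ± 1.94, SE, edgeR adjusted p = 0.000505, 10.80 without DSY-c2 replicate 4, 11.15 without N40 replicate 1, and 12.63 without N40 replicate 2).

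LAMA4, a laminin chain of endothelial and mesenchymal basement membranes, had 84.8, 416 and 66.8 CPM in DSY-c2 and 9.77, 16.8 and 14.7 CPM in N40 (log2 3.78 ± 0.95, SE, and 2.40 without replicate 4). LAMB3 and LAMA3, chains of the epithelial laminin 332, were higher without relying on that library. LAMB3 had 18.6, 20.5 and 27.8 CPM in DSY-c2 and 3.57, 3.33 and 2.77 CPM in N40 (log2 2.79 ± 0.65, SE), and LAMA3 had 28.3, 29.1 and 38.8 CPM in DSY-c2 and 10.2, 7.88 and 9.74 CPM in N40 (log2 1.79 ± 0.26, SE, edgeR adjusted p = 0.000128). LAMA2, the chain of muscle-type laminin, was lower, at 5.79, 5.47 and 6.93 CPM in DSY-c2 and 13.8, 20.5 and 26.6 CPM in N40 (log2 -1.74 ± 0.27, SE, edgeR adjusted p = 0.000184). No laminin named here overlapped between the lines. LAMB1, a chain of laminin 111 and 511, was called only with replicate 4 (adjusted p = 0.336 without it) and was also lost without any single N40 library.

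COL1A1, a chain of type I collagen, had 188, 165 and 304 CPM in DSY-c2 and 761, 595 and 492 CPM in N40 (log2 -1.49 ± 0.42, SE, edgeR adjusted p = 0.0137), and its partner COL1A2 had 12.9, 25.1 and 25.2 CPM in DSY-c2 and 14.7, 8.48 and 8.75 CPM in N40, which overlapped. COL6A3, a beaded-filament collagen, had 145, 136 and 122 CPM in DSY-c2 and 46.5, 39.8 and 43.7 CPM in N40 (log2 1.63 ± 0.34, SE). The basement membrane chains COL4A1 and COL4A2 were not called, with 873, 1546 and 781 CPM in DSY-c2 and 1112, 1250 and 1180 CPM in N40 for COL4A1. LTBP1, which stores latent TGF-beta in the matrix, had 154, 192 and 177 CPM in DSY-c2 and 658, 535 and 546 CPM in N40 (log2 -1.73 ± 0.17, SE, edgeR adjusted p = 4.24e-06). VTN, vitronectin, was lower at 109, 130 and 115 CPM in DSY-c2 and 169, 213 and 232 CPM in N40 (log2 -0.80 ± 0.20, SE). COL1A1, LAMA2, LAMA3, LTBP1 and POSTN passed in every alternative, but FN1, LAMA4, LAMB3, COL6A3 and VTN did not pass with a term for the ending (adjusted p = 0.0563, 0.229, 0.178, 0.129 and 0.0728).

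Integrins, the matrix receptors, were higher in 11 of 23 and lower in 1, beside 19.8% and 15.3% of all genes. The higher count was 5 without DSY-c2 replicate 4, beside 14% of all genes, and 7, 6 and 5 without N40 replicates 1, 2 and 3. With a term for the ending it was 2, beside 6.49% of all genes. ITGA2, a collagen-binding chain, had 10.6, 62.4 and 21 CPM in DSY-c2 and 0.501, 0.311 and 0.299 CPM in N40 (log2 6.39 ± 1.27, SE, edgeR adjusted p = 0.00175, and 5.34 without replicate 4). ITGA5, the fibronectin-binding chain, had 184, 524 and 215 CPM in DSY-c2 and 129, 125 and 116 CPM in N40 and lost its call without that library (adjusted p = 0.15) or N40 replicate 2 or 3. ITGB2, the leukocyte beta chain, was the member that was lower (log2 -1.34 ± 0.29, SE). Matrix-modifying enzymes were higher in 13 of 39 and lower in none, and 9 were higher without replicate 4, 8 without N40 replicate 2, and 3 with a term for the ending. LOXL2 and LOXL3, lysyl oxidases that cross-link collagen, both passed in every alternative. LOXL2 had 49, 58.8 and 40.3 CPM in DSY-c2 and 23.5, 18.4 and 19.3 CPM in N40 (log2 1.28 ± 0.19, SE). LOXL3 had 14.7, 7.55 and 12.9 CPM in DSY-c2 and 5.25, 1.81 and 1.48 CPM in N40 (log2 2.04 ± 0.39, SE, and 2.79 without N40 replicate 1). LOXL2 lies in a run of neighbouring genes that differed together. ADAMTS3, a procollagen protease, had 11.3, 35.4 and 9.12 CPM in DSY-c2 and 0.952, 0 and 0.869 CPM in N40 (log2 4.93 ± 1.04, SE, 4.0 without DSY-c2 replicate 4 and 4.31 without N40 replicate 2).

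**Figure D3:**
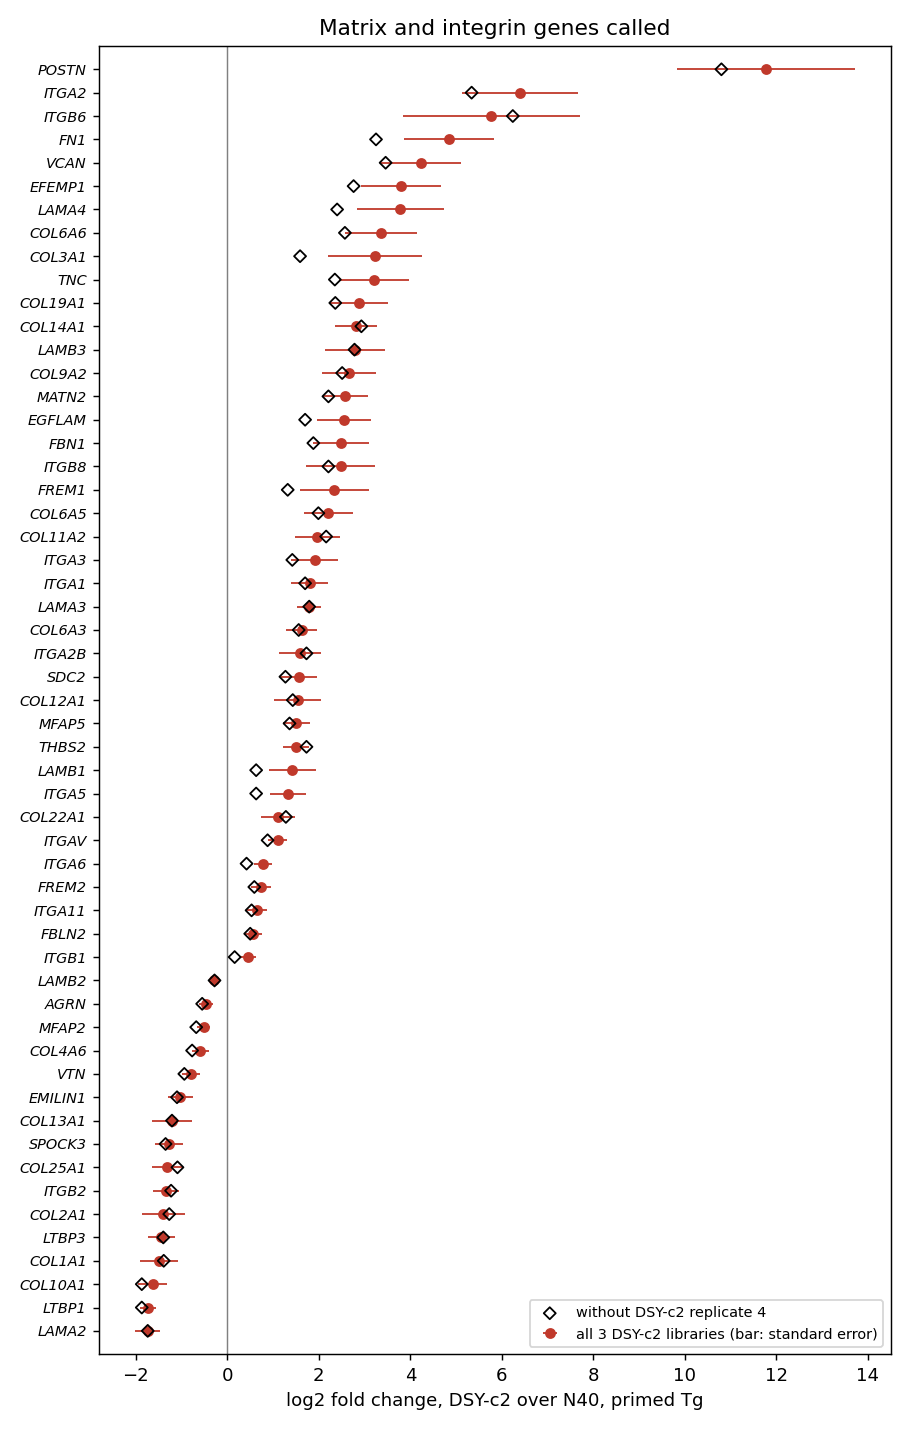
Log2 fold change, DSY-c2 over N40 in primed Tg cells, of the called collagens, laminins, other matrix proteins and integrins; red points with bars are estimates with standard errors from 3 libraries per line, and open diamonds are estimates without DSY-c2 replicate 4. Leaving out replicate 4 moved FN1, LAMA4, COL3A1 and ITGA5 towards 0 and left LTBP1, LAMA2 and COL1A1 close to where they were.

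More immediate early genes were lower in DSY-c2 than higher. Of 18 tested, 8 were lower, 2 higher and 8 not called (median log2 fold change -0.57), and without DSY-c2 replicate 4 the counts were 7 and 2 (median -1.09). Without DSY-c2 replicate 2 or N40 replicate 2, 5 were lower and 1 was higher, and with a term for the ending 3 were lower and 1 higher, beside 15.3% of all genes lower and 4.15% with that term. SGK1, a serum- and glucocorticoid-induced kinase, had 72, 76.3 and 91.3 CPM in DSY-c2 and 429, 651 and 989 CPM in N40 (log2 fold change -3.11 ± 0.46, SE, edgeR adjusted p = 0.00022). ARC, best known as a synaptic immediate early gene, had 3.17, 2.54 and 3.33 CPM in DSY-c2 and 15.6, 12 and 20.5 CPM in N40 (log2 -2.41 ± 0.31, SE, edgeR adjusted p = 3.78e-05). ZFP36, which promotes decay of AU-rich mRNAs, had 8.32, 18.7 and 11.7 CPM in DSY-c2 and 20.5, 40.6 and 31.8 CPM in N40 (log2 -1.26 ± 0.32, SE, edgeR adjusted p = 0.00628). The DSY-c2 libraries of all 3 genes lay below the N40 range, and the calls held in every alternative. IER5, which encodes an immediate early regulator of heat-shock genes, was 1 of the 2 members higher in DSY-c2, with 13.1, 13.7 and 10.6 CPM in DSY-c2 and 2.2, 1.5 and 2.15 CPM in N40 (log2 2.67 ± 0.38, SE, edgeR adjusted p = 9.85e-05), and it held as well.

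The AP-1 genes themselves varied widely between replicates. FOS had 40.2, 12.4 and 103 CPM in DSY-c2 and 217, 432 and 24.1 CPM in N40 and was not called (log2 -2.11 ± 0.81, SE, edgeR adjusted p = 0.0587). It was called lower without DSY-c2 replicate 5 (log2 -3.16, adjusted p = 0.0207) or N40 replicate 3 (log2 -2.68, adjusted p = 0.0107), and its log2 fold change was -1.24 without N40 replicate 2. FOSB had 3.45, 1.29 and 10 CPM in DSY-c2 and 19.8, 85 and 6.72 CPM in N40, and its call (adjusted p = 0.0131) was lost without DSY-c2 replicate 2 or N40 replicate 2 and with only the groups compared in the fit (adjusted p = 0.0793). Its log2 fold change was -1.46 without N40 replicate 2 and -4.04 without DSY-c2 replicate 5. In N40, replicate 2 was the highest and replicate 3 the lowest for both genes, and N40 replicate 3 lay inside the DSY-c2 range. CCN1, a matricellular gene induced by serum and YAP, had 128, 120 and 265 CPM in DSY-c2 and 606, 1190 and 422 CPM in N40, and lost its call without DSY-c2 replicate 2, DSY-c2 replicate 4 or N40 replicate 2 (adjusted p = 0.021 with all libraries). BTG2, an antiproliferative early gene, had 16.1, 18.5 and 19 CPM in DSY-c2 and 43.5, 51.9 and 27 CPM in N40 (log2 -1.19 ± 0.32, SE, adjusted p = 0.0747 with a term for the ending). NR4A1, an orphan nuclear receptor, had 39.1, 41.6 and 57.8 CPM in DSY-c2 and 64.1, 95.1 and 57.9 CPM in N40 and was not called without DSY-c2 replicate 2 or N40 replicate 2. KLF10, a TGF-beta-induced factor, was higher, at 76.4, 60.2 and 50.2 CPM in DSY-c2 and 38.3, 21.5 and 35.3 CPM in N40, and was also lost without either of those libraries. KLF6 had 63.3, 258 and 71.5 CPM in DSY-c2 and 80.1, 206 and 153 CPM in N40 and was called lower only without DSY-c2 replicate 4 (log2 -1.18). The list summed to 759 to 1038 CPM in DSY-c2 and 1870 to 3178 CPM in N40, and to 749 to 907 CPM in DSY127 and 965 to 1121 CPM in No.40. The sum gives most weight to abundant members, such as SGK1, CCN1 and FOS. The mean log2 level differed less, at 3.82 to 4.14 in DSY-c2 and 4.44 to 4.90 in N40. It was 3.93 to 4.27 in DSY127 and 3.73 to 4.24 in No.40. The time from medium change or dissociation to lysis is not given in the sources used here, and its part in these values was not tested.

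**Figure D4:**
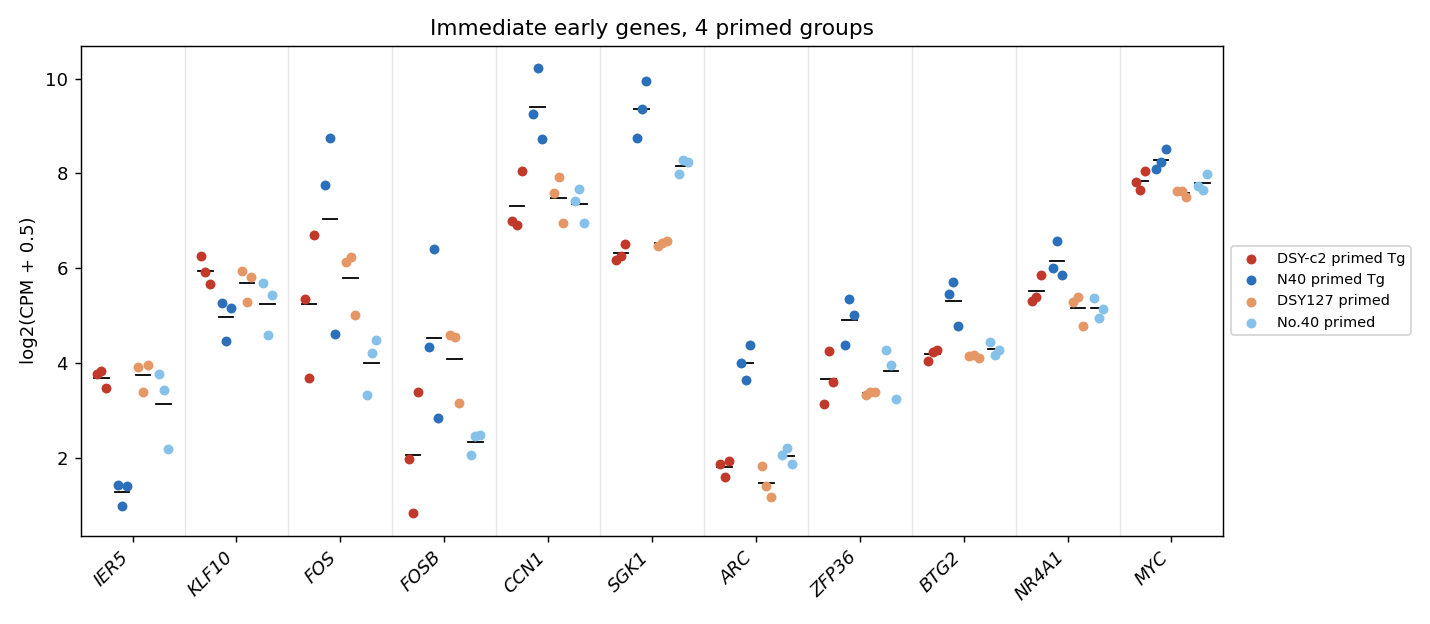
Expression, log2(CPM + 0.5), of 11 immediate early genes in DSY-c2 (red), N40 (blue), DSY127 (orange) and No.40 (light blue) primed libraries; points are libraries and black lines means of 3. SGK1, ARC and ZFP36 are lower in all DSY-c2 libraries than in all N40 libraries, IER5 is higher, and FOS and FOSB spread widely within each line.

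Of 11 YAP target genes, another set that responds to mechanical state, 1 was higher and 3 were lower (35.2% of all genes were called), and 2 were lower without DSY-c2 replicate 4. Their summed level, which gives most weight to the most abundant members, was 520 to 734 CPM in DSY-c2 and 1116 to 1891 CPM in N40, without overlap. The mean log2 level of the 11 genes did overlap, at 4.69 to 5.12 in DSY-c2 and 4.74 to 4.97 in N40. The median log2 fold change was 0.21 (0.11 without DSY-c2 replicate 4). Singly, 7 of the 11 did not overlap, against 48.2% of all genes. ANKRD1, a cardiac ankyrin-repeat protein gene, had 4.37, 23.3 and 6.25 CPM in DSY-c2 and 0.138, 0.104 and 0 CPM in N40 (log2 7.08 ± 1.79, SE, 5.92 without DSY-c2 replicate 4, and 6.49 without N40 replicate 3). AJUBA, a LIM-domain inhibitor of LATS kinases, had 96.6, 87 and 106 CPM in DSY-c2 and 162, 194 and 194 CPM in N40 (log2 -0.93 ± 0.14, SE, edgeR adjusted p = 0.000157), and LATS2, the Hippo kinase itself, had 23.4, 26.3 and 22.8 CPM in DSY-c2 and 30.6, 39.5 and 50.2 CPM in N40 (log2 -0.73 ± 0.17, SE). AJUBA and LATS2 passed in every alternative and ANKRD1 did not pass with a term for the ending.

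Signalling genes of the WNT, NODAL and BMP pathways included more genes higher in DSY-c2 than lower. WNT genes numbered 19 higher and 0 lower of 36, NODAL and TGF-beta genes 10 and 0 of 24, and BMP genes 8 and 1 of 15, with medians of 0.79, 0.60 and 0.60. Over all genes 19.8% were higher and 15.3% lower. Without DSY-c2 replicate 4 the counts were 10 and 0, 7 and 1, and 6 and 1, and the WNT count was 11 without N40 replicate 2 or 3. With a term for the ending, 3 WNT, 3 NODAL and TGF-beta and 4 BMP genes were higher and none lower, beside 6.49% of all genes higher. Among ligands, NODAL had 57, 415 and 68.2 CPM in DSY-c2 and 12.6, 18.3 and 27.2 CPM in N40 and lost its call without replicate 4 (adjusted p = 0.117) or N40 replicate 1 or 2, and WNT5B, a non-canonical ligand, had 7.74, 17.4 and 4.45 CPM in DSY-c2 and 2.22, 0.983 and 0.883 CPM in N40 (log2 2.85 ± 0.53, SE, and 2.09 without replicate 4). Among processing enzymes and receptors, PCSK6, a protease that activates NODAL, had 15.9, 27.9 and 16.3 CPM in DSY-c2 and 4.32, 4.93 and 4.74 CPM in N40 (log2 2.10 ± 0.29, SE, edgeR adjusted p = 7.76e-05). LGR4, a receptor for R-spondins, had 157, 195 and 125 CPM in DSY-c2 and 68, 54.1 and 53 CPM in N40 (log2 1.44 ± 0.22, SE, edgeR adjusted p = 0.000211). BMPR1A, a type I BMP receptor, had 144, 181 and 150 CPM in DSY-c2 and 88.8, 88.2 and 90.7 CPM in N40 (log2 0.83 ± 0.09, SE, edgeR adjusted p = 9.74e-06). These 3 receptors and enzymes did not overlap between the lines and held in every alternative. PCSK6 lies in a stretch of neighbouring genes that differed together, as described at the end.

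Of the transducers, SMAD4 had 70.9, 70.9 and 71.6 CPM in DSY-c2 and 46.5, 51.6 and 52.5 CPM in N40 (log2 0.50 ± 0.08, SE), and SMAD2 differed by a similar amount (log2 0.47 ± 0.10, SE). Among target genes and antagonists, SP8, a zinc-finger gene downstream of WNT in limb and brain, had 32.6, 52.7 and 30.2 CPM in DSY-c2 and 0.451, 1.26 and 0.625 CPM in N40 (log2 5.63 ± 1.01, SE, edgeR adjusted p = 0.000895), SP5 had 2.5, 8.67 and 0.75 CPM in DSY-c2 and 0.125, 0 and 0 CPM in N40 (log2 6.47 ± 1.33, SE, 5.12 without DSY-c2 replicate 4, 5.88 without N40 replicate 2, and 10.96 without N40 replicate 1, where the 2 N40 libraries left are at 0 and the value depends on the prior count), and CHRD, the BMP antagonist chordin, had 6.08, 4.17 and 3.97 CPM in DSY-c2 and 1.58, 0.828 and 0.815 CPM in N40 (log2 2.14 ± 0.31, SE). SP8, CHRD, SMAD2 and SMAD4 passed in every alternative and SP5 did not pass with a term for the ending (adjusted p = 0.0571). Of 12 FGF-ERK genes, 2 were higher and 1 lower, beside 19.8% and 15.3% of all genes. In this list 1 was higher and none lower without DSY-c2 replicate 4. SPRY2, a feedback inhibitor of FGF receptors, had 1.42, 1.32 and 1.98 CPM in DSY-c2 and 0, 0.0259 and 0.0272 CPM in N40 (log2 6.35 ± 0.73, SE, edgeR adjusted p = 1.76e-05, and 5.75 without N40 replicate 1). Of 15 LIF-STAT3 genes, 5 were higher and none lower, and 3 were higher without DSY-c2 replicate 2, DSY-c2 replicate 4 or N40 replicate 2, with JAK2, the cytokine receptor kinase, at 21.9, 31.9 and 22.5 CPM in DSY-c2 and 9.44, 12.4 and 10.7 CPM in N40 (log2 1.23 ± 0.19, SE, edgeR adjusted p = 0.000233).

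Germline and chromatin genes included large differences. Of 15 primordial germ cell genes, 8 were higher and 2 lower (median log2 fold change 0.87), beside 19.8% and 15.3% of all genes. RBM46, a germline RNA-binding protein needed for meiosis in mouse, had 142, 149 and 132 CPM in DSY-c2 and 2.62, 1.71 and 2.88 CPM in N40 (log2 5.87 ± 0.63, SE, edgeR adjusted p = 2.03e-05), and RBM44, another germ cell RNA-binding protein gene, had 41.4, 19.2 and 31.4 CPM in DSY-c2 and 1.57, 2.02 and 1.29 CPM in N40 (log2 4.24 ± 0.47, SE, edgeR adjusted p = 1.76e-05). Every DSY-c2 library was above every N40 library for both. DDX4, the VASA helicase gene, had 13.6, 9.59 and 7.69 CPM in DSY-c2 and 2.13, 0.802 and 1.11 CPM in N40 (log2 2.93 ± 0.60, SE, adjusted p = 0.0679 with a term for the ending). EZHIP, an inhibitor of the histone methyltransferase complex PRC2, had 72.2, 57.2 and 71.4 CPM in DSY-c2 and 1.52, 0.725 and 0.163 CPM in N40 (log2 6.37 ± 1.08, SE, edgeR adjusted p = 0.000612, and 7.18 without N40 replicate 1). SUZ12, a core PRC2 subunit, had 129, 123 and 133 CPM in DSY-c2 and 76.7, 71.3 and 68.2 CPM in N40 (log2 0.83 ± 0.08, SE, edgeR adjusted p = 3.14e-06). In PRC2 and its inhibitors, 6 of 14 were higher and 1 lower. Without DSY-c2 replicate 4 they were 4 and 2, beside 14% and 15.4% of all genes.

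Of 10 DNA methylation genes, 2 were higher and 3 lower, beside 19.8% and 15.3% of all genes. The higher count was 1 without DSY-c2 replicate 2, DSY-c2 replicate 5 or N40 replicate 2. DNMT3A, a de novo methyltransferase, had 176, 220 and 209 CPM in DSY-c2 and 355, 399 and 470 CPM in N40 (log2 -1.02 ± 0.21, SE), UHRF1, which recruits the maintenance enzyme, had 168, 197 and 182 CPM in DSY-c2 and 245, 267 and 301 CPM in N40 (log2 -0.57 ± 0.11, SE, edgeR adjusted p = 0.000974), and TET2, a demethylating dioxygenase, had 18.4, 18.1 and 18.5 CPM in DSY-c2 and 8.82, 8.68 and 9.66 CPM in N40 (log2 1.02 ± 0.12, SE, edgeR adjusted p = 2.09e-05). Only DNMT3A of these lost its call with a term for the ending (adjusted p = 0.0679), and its neighbours on the chromosome were lower too. Of 21 imprinted genes, 10 were higher and 3 lower. Without DSY-c2 replicate 4 they were 6 and 1, beside 14% and 15.4% of all genes. The higher count was 6 without N40 replicate 1, and the lower count 1 without N40 replicate 2 or 3. PEG3, a paternally expressed zinc-finger gene, had 1753, 1492 and 1777 CPM in DSY-c2 and 453, 428 and 504 CPM in N40 (log2 1.86 ± 0.13, SE, edgeR adjusted p = 2.52e-07), and ZDBF2, also paternally expressed, had 109, 94.4 and 116 CPM in DSY-c2 and 48.2, 30.5 and 28.1 CPM in N40 (log2 1.58 ± 0.22, SE, edgeR adjusted p = 7.6e-05). Both passed in every alternative with no overlap.

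Metabolic and stress response counts can be read beside the 35.2% of all genes called. Of 16 glycolysis genes 3 were called, of 21 oxidative phosphorylation genes 7, of 19 cholesterol genes 4, and of 13 integrated stress response genes 1, with list medians between -0.01 and 0.12. Without DSY-c2 replicate 4 no glycolysis and no integrated stress response gene was called. The 2 higher glycolysis genes became 0 without N40 replicate 2 or 3 and 1 without DSY-c2 replicate 5 or N40 replicate 1. The 3 higher cholesterol genes became 0 without DSY-c2 replicate 2, N40 replicate 2 or N40 replicate 3 and 1 without DSY-c2 replicate 5. The 3 higher oxidative phosphorylation genes became 0 without DSY-c2 replicate 5 and 1 without DSY-c2 replicate 2 or N40 replicate 3. Of 26 cell cycle genes, 2 were higher and 6 lower, with RRM2, the ribonucleotide reductase subunit, at 340, 330 and 319 CPM in DSY-c2 and 649, 619 and 630 CPM in N40 (log2 -0.94 ± 0.19, SE). Of 11 genes of the p53 response, 5 were higher and 1 lower. EDA2R, an ectodysplasin receptor and p53 target, had 5.24, 4.52 and 4.53 CPM in DSY-c2 and 0.0752, 0.168 and 0 CPM in N40 (log2 5.83 ± 0.65, SE, edgeR adjusted p = 1.49e-05, 6.83 without N40 replicate 2, and 5.24 without N40 replicate 3). SESN1, a stress-induced antioxidant gene, had 24.6, 21.3 and 21.5 CPM in DSY-c2 and 9.01, 5.95 and 7.39 CPM in N40 (log2 1.59 ± 0.18, SE, edgeR adjusted p = 1.6e-05), and TNFRSF10B, a death receptor, had 45.5, 38.9 and 43.6 CPM in DSY-c2 and 9.91, 10.2 and 7.28 CPM in N40 (log2 2.22 ± 0.32, SE). EDA2R, SESN1 and TNFRSF10B held in every alternative. TNFRSF10B lies in a stretch of neighbouring genes that differed together, as described at the end. RRM2 did not pass with a term for the ending (adjusted p = 0.0834).

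In primed cells without the Tg suffix, DSY127 against No.40 called far fewer genes. There 802 genes (4.47%) passed, 476 higher in DSY127 (2.65%) and 326 lower (1.82%). These 2 comparisons share no library. Of the genes called higher in DSY-c2, 415 were also called higher in DSY127 (11.7% of 3562 and 87.2% of 476), and of those called lower, 276 were (10% of 2752 and 84.7% of 326). Only 4 and 1 were called in opposite directions. Across genes, the log2 fold changes of the 2 comparisons correlated at r = 0.47, as a description. DPPA5 averaged 229 CPM in DSY127 and 48.4 CPM in No.40 (log2 2.24, edgeR adjusted p = 0.000176), NLRP7 545 CPM in DSY127 and 180 CPM in No.40 (log2 1.60, edgeR adjusted p = 0.00207), and KHDC3L 238 CPM in DSY127 and 127 CPM in No.40 (log2 0.91, edgeR adjusted p = 0.00275). Of the 17 naive genes, 4 were called higher in DSY127 and none lower. RBM44, RBM46, LIN28B, SALL3 and EZHIP were also called higher in DSY127, and C18orf63, PGM5, SRPX2, LAMA2 and SGK1 lower. None of the 18 streak and mesoderm genes was called between DSY127 and No.40 (median log2 fold change 0.45), where 4.47% of all genes were called. The count of 802 moved with single libraries, to 403, 377 and 399 without DSY127 replicates 1, 2 and 3, to 368 and 470 without No.40 replicates 2 and 3, and to 1165 without No.40 replicate 1, the only No.40 library whose columns end in L6 or L7. With a term for the ending it was 1187.

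A test of whether DSY-c2 minus N40 differed from DSY127 minus No.40 called 570 genes (3.17%). Of these, 410 were more positive in the Tg comparison (2.28%) and 160 more negative (0.891%), and 553 were also called between DSY-c2 and N40. The labels do not relate the 4 groups, so line, Tg suffix and column ending cannot be told apart in this test. The count of 570 was 42 with a term for the ending, and it moved with single libraries. It was 292, 338 and 346 without DSY-c2 replicates 2, 4 and 5, and 213 and 256 without N40 replicates 2 and 3. It was 236, 205 and 255 without DSY127 replicates 1, 2 and 3, and 219 and 907 without No.40 replicates 1 and 3. KLF17 was among the 570, with a difference larger by log2 4.46 ± 0.96 (SE, edgeR adjusted p = 0.0256) between DSY-c2 and N40 than between DSY127 and No.40. KLF17 averaged 9.08 CPM in DSY127 and 4.08 CPM in No.40. ARGFX, CER1, GATA6, FN1, POSTN, ITGA2 and SPRY2 were called as well, each more positive, and UTF1, CLDN3, ARC and PGM5 more negative. For UTF1, for example, DSY127 averaged 7.91 CPM and No.40 10.9 CPM, so that N40 Tg cells stood above the other 3 primed groups. In the naive state, DSY-c2 TgON against N40 TgOFF, 6127 genes (34.1%) were called, 3160 higher (17.6%) and 2967 lower (16.5%). Of the genes called higher in primed DSY-c2, 41.4% were called higher and 177 genes lower in naive DSY-c2. KLF17 averaged 85.9 CPM in DSY-c2 TgON and 115 CPM in N40 TgOFF (log2 -0.43, edgeR adjusted p = 0.621), DPPA5 622 CPM in DSY-c2 TgON and 743 CPM in N40 TgOFF (log2 -0.26, edgeR adjusted p = 0.469), and NLRP7 2160 CPM in DSY-c2 TgON and 2443 CPM in N40 TgOFF (log2 -0.18, edgeR adjusted p = 0.621). The naive groups differ in line and in the suffix TgON or TgOFF at once, so these effects cannot be told apart.

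Finally, genes that lie next to each other differed together in 4 stretches and a shorter run, found after the values were seen and described without a test. Their ends were set with these values known. The counts inside them and the contrast with genes beside them therefore follow in part from that choice. Over all genes, 19.8% were higher in DSY-c2 and 15.3% lower. Order was taken from the RefSeq annotation of assembly calJac240_pri, and genes at 10 CPM or more in either line were counted. The first stretch, 27 genes from TUBGCP5 to MCTP2, includes UBE3A, TJP1, PCSK6, MEF2A and IGF1R. Of these, 26 were called higher in DSY-c2 and the median log2 fold change was 1.15, against 0.08 for the next 10 genes beyond MCTP2. UBE3A (ubiquitin ligase E3A, mutated in Angelman syndrome) had 167, 158 and 161 CPM in DSY-c2 and 76.1, 77.8 and 81.7 CPM in N40 (log2 1.05 ± 0.06, SE, edgeR adjusted p = 2.59e-08). Relative to the mean of the DSY127 and No.40 libraries, the median gene of the stretch was at log2 0.05 to 0.10 in the 3 DSY-c2 libraries and -1.03 to -0.93 in the 3 N40 libraries, so N40 lay apart from the other 3 primed groups. The second stretch, 26 genes from AMPH to COBL with VPS41, CDK13, MYL7 and GRB10, behaved alike, with 25 called higher, a median of 0.90, and relative levels of 0.01 to 0.07 in DSY-c2 and -0.97 to -0.84 in N40. In these 2 stretches the median difference between DSY127 and No.40 was 0.01 and -0.03. Between DSY-c2 TgON and N40 TgOFF the medians were 0.75 and 0.76. The shorter run, PDE1C to BBS9, lies ahead of AMPH, and all of its 6 genes were called higher (median 0.90). Its relative level was -0.04 to 0.11 in DSY-c2 and -1.02 to -0.73 in N40. In the naive state 3 of its genes were higher and 2 lower (median 0.37), beside 17.6% and 16.5% of all genes.

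The other 2 stretches separated DSY127 from No.40 as well, a comparison in which 2.65% of all genes were higher and 1.82% lower. From LOXL2 to INTS10, 14 of 17 genes, with CHMP7, TNFRSF10B and REEP4 among them, were higher in DSY-c2 (median log2 0.96) and 12 were higher in DSY127 (median 0.77). The next 10 genes, ASAH1 to DLC1, had a median of 1.05 in DSY-c2 over N40, but they were divided. ASAH1 and PCM1, the nearest to INTS10, were at -0.13 and 0.09, and CNOT7 and TUSC3 at 0.07 and -0.42, none called. MTUS1, SLC7A2, VPS37A, ZDHHC2, MSR1 and DLC1 were called higher, at 0.46 to 4.57. From BABAM2 to SF3B6, 29 of 35 genes, with DNMT3A, EMILIN1 and HADHB among them, were lower in DSY-c2 (median -0.71) and 16 were lower in DSY127 (median -0.50). Relative levels in the BABAM2 to SF3B6 stretch were -0.25 to -0.17 in DSY-c2 and 0.44 to 0.49 in N40, and -0.28 to -0.24 in DSY127 and -0.09 to 0.45 in No.40, where replicate 1 lay at -0.09 and the other 2 libraries at 0.43 and 0.45. No.40 replicate 1 is the only No.40 library whose columns end in L6 or L7, as those of DSY-c2 do. The genome build of the counts is not given in the sources used here, so this order is that of the RefSeq assembly alone. DNA copy number was not measured in these RNA libraries, and its part in the values of the 4 stretches and the shorter run was not tested.

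**Figure D5:**
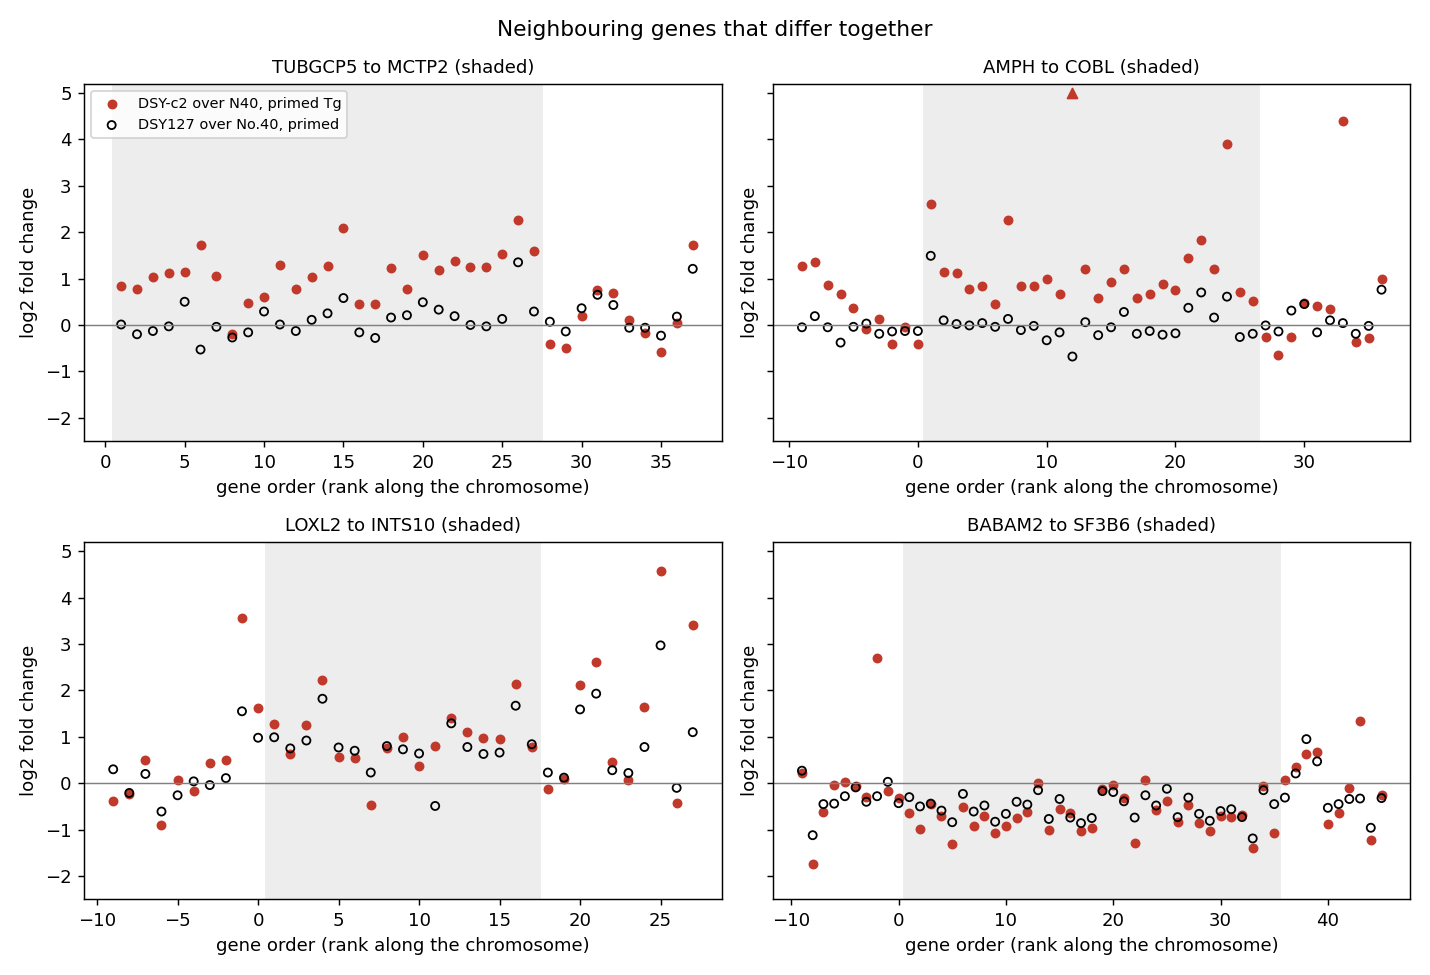
Log2 fold change of genes in RefSeq order across 4 stretches (shaded) and up to 10 genes on either side; red points are DSY-c2 over N40 in primed Tg cells, open circles DSY127 over No.40 in primed cells, and triangles at the upper edge mark red values above 5. In the upper panels the red points sit near 1 while the open circles sit near 0, and in the lower panels both move together.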

How the data were processed

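Poly(A)+ RNA of marmoset ESCs was made into stranded libraries (TruSeq Stranded mRNA), per the labels' protocols. The deposited table holds whole-number read counts per gene, with no normalization. Per the submitters' processing notes, the tools were Trim Galore 0.4.0, STAR 2.5.3a and featureCounts 1.5.2. No build, annotation or strand setting is given in the sources used here, so overlapping, antisense and near-identical genes are uncertain. Each library has 2 columns, which were summed, and 6 columns were not used. Low counts were even more often than high counts (64.5% of counts from 1 to 49 and 50.3% of counts of 500 or more), for a reason that no label states.

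Symbols cover 12660 of 30811 gene IDs (41.1%), and 673 of 915 listed genes matched. One edgeR 4.0.16 quasi-likelihood fit (R 4.3.3, limma 3.58.1, TMM scaling, default low-count filter) held the 18 ESC libraries, so all groups share an estimate of the spread. Contrasts were DSY-c2 minus N40, DSY127 minus No.40, DSY-c2 TgON minus N40 TgOFF, and the first minus the second. Calls needed an adjusted p (Benjamini-Hochberg over all 17957 genes) below 0.05, and every adjusted p is edgeR's. CPM use TMM-scaled sizes and do not correct for gene length. The steps were tested on simulated data.

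Alternatives were DESeq2 1.42.0 (test and size factors), other filters, halved counts, fits of the groups compared only, each library left out and, added after the data were seen, a term for the column ending. Members and gene lists were chosen with earlier results of these data known. Named genes are the 12 largest rises and falls, the 5 most abundant genes, members of the pluripotency, reprogramming, immediate early and streak lists, called or not, up to 10 genes called in the interaction, and up to 8 called members of each other list. Uncalled or near-zero markers outside that rule (CDX2, PRRX1, FAP, PTPRC, DCN, COL1A2, ITGA5) and the genes of the neighbouring stretches were chosen after their values were seen.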

Additional observations from a re-analysis of the deposited data

Results flagged for a closer look

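The difference DSY-c2 minus N40 in Tg cells was unlike the difference DSY127 minus No.40 in 570 genes, by an interaction term in the edgeR fit. The labels do not say how these groups are related, so line, Tg suffix and column ending cannot be told apart here. Values below are the first difference minus the second, on the log2 scale.

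Among naive and core genes, ARGFX differed by 7.96, KLF17 by 4.46, LIN28B by 0.60 and UTF1 by -1.87. Of lineage and matrix genes, MYL7 differed by 14.17, CER1 by 12.77, POSTN by 11.09, TRPA1 by 10.64, GATA6 by 10.43, SPHKAP by 7.88, ITGA2 by 7.07 and FN1 by 5.06. N40 had no count of ARGFX or MYL7, so those 2 values depend on the prior count and are no bounds. TRPA1, POSTN, GATA6 and SPRY2 averaged at most 0.0597 CPM in N40, so their values rest on few counts. For TRPA1, DSY-c2 over N40 was log2 11.21, 9.01 without DSY-c2 replicate 4 and 14.48 without N40 replicate 1. The last value also depends on the prior count, as the N40 libraries left hold no count. Of signalling and immediate early genes, SPRY2 differed by 6.0, EDA2R by 4.82, IER5 by 2.14, BMPR1A by 0.53, AJUBA by -0.76, ARC by -1.75 and FOSB by -4.90. CLDN3 differed by -1.68, PGM5 by -2.22, PEG3 by 1.80 and SUZ12 by 0.63.

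In the stretches of neighbouring genes, PCSK6 differed by 1.52, MEF2A by 1.19, UBE3A by 1.09, CDK13 by 1.09, VPS41 by 1.04, GRB10 by 0.98 and TJP1 by 0.93.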

How the results depend on the processing

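The count of 6314 genes between DSY-c2 and N40 ranged from 5655 to 7149 under the other filters, scalings and tests, halved counts and a fit of the groups compared only, and from 4821 to 6323 with 1 library left out. With a term for the column ending it was 1911. For DSY127 against No.40, 802 genes became 1503 with DESeq2, 430 with only those groups in the fit, and 368 to 1165 with 1 library left out. The 570 genes of the interaction became 1395 with DESeq2, 42 with the ending term, 352 with no filter and 205 to 907 with 1 library left out. The cause was not tested.

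No paired analysis was possible because DSY-c2 and N40 primed libraries share only replicate number 2. With a replicate block, 28 genes were called between DSY127 and No.40 and 5055 between DSY-c2 TgON and N40 TgOFF. Same-numbered deviations correlated at -0.00825, 0.0166 and -0.448, and at 0.22, -0.462 and 0.464, so the numbers did not pair the samples.

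Of 124 called genes named in the text, 60 kept their call in every alternative, 44 lost it only with the ending term, 15 lost it without DSY-c2 replicate 4, and 0 changed direction. Of 1066 list counts under alternatives, 864 were within 1.5 times the reported one. Genes that were not called turned sign or came to 0.00 as follows (log2). With 1 library left out, ranges were CDX2 from 0.00 to 3.12, COL4A2 from -0.52 to 0.10, DNMT3B from -0.03 to 0.32, ESRRB from -0.41 to 0.44, FAP from -2.97 to 0.00, HSP90AA1 from -0.18 to 0.17, KLF4 from -0.12 to 0.32, KLF6 from -1.18 to 0.13, NR5A2 from -0.10 to 0.17, PRRX1 from -0.32 to 0.37, PTPRC from -0.59 to 0.47, SALL4 from -0.17 to 0.00 and ZIC2 from -0.13 to 0.17. With the ending term, EEF2 was 0.13, ESRRB -0.19, NR5A2 -0.10, PRRX1 -0.57 and PTPRC -2.29. ZIC2 was -0.04 with a filter of 1 CPM, -0.02 with DESeq2 scaling or its test, -0.03 with only the groups compared and -0.00 with no filter.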
